A study of Homo sapiens with 16 samples.

Results

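The AP-1 family was followed across successive phases of gemcitabine selection in a human bladder cancer cell line. The set held 10 named genes: FOS, FOSB, FOSL1, FOSL2, JUN, JUNB, JUND, BATF3, MAFF and ATF2. They were picked out of the expression table by symbol, from a list drawn up with earlier results of these data known. All 10 were found among the 39007 genes listed, and all 10 had a mean above 1 CPM (read counts scaled to the size of each library), which placed them among the 13249 genes tested.

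T24 is an established urothelial carcinoma line, known for an activated HRAS gene. Gemcitabine is a nucleoside analogue that blocks DNA synthesis and is used against bladder cancer. The P0 libraries came from parental T24 cells, and the P3, P7 and P15 libraries from later phases of GRC1, a gemcitabine-selected line raised from T24 by repeated drug exposure and regrowth. Each of the 4 phases had 4 libraries, with the same serum-containing medium named for all of them. Every library title carries the letters NT, which the study's methods do not explain. Those methods also do not say whether drug was present when RNA was taken. GRC1 is 1 resistant line, so phase and the history of that line cannot be told apart. The labels do not say that the 4 libraries of a phase came from separate cultures, so every p-value measures the spread between these libraries, which may be technical. In such bulk samples a smaller share of expressing cells and less RNA per cell cannot be told apart.

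AP-1 is a dimer of basic leucine zipper proteins that binds short palindromic DNA sites. FOS proteins need a JUN partner to bind, whereas JUN proteins can also pair with one another, and ATF2, BATF3 and MAFF join the network through shared zipper partners. FOS, FOSB, JUN and JUNB are immediate early genes, transcribed within minutes of growth factor or stress signals, and FOSL1 is a late-responding member sustained by RAS and ERK signalling. AP-1 is known in epithelial cancers for its control of matrix proteases, growth factor ligands and cell cycle genes.

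The bases upstream of several of these genes were searched for the letters of the sites that AP-1 and ATF dimers bind. The 5 windows printed here belong to members that moved with phase in the results that follow. Each holds 250 bases and ends at the base before the start site (RefSeq, GRCh38.p14). Capitals mark matches to TGANTCA, to TGANNTCA and to TGACG or its reverse complement CGTCA, read on both strands.
FOS, chr14:75278578-75278827, plus strand: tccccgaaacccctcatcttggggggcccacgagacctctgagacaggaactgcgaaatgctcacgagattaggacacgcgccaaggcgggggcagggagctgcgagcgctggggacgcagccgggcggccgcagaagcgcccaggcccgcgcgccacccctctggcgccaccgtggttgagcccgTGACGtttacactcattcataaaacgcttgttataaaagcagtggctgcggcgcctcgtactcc
JUN, chr1:58784048-58784297, minus strand: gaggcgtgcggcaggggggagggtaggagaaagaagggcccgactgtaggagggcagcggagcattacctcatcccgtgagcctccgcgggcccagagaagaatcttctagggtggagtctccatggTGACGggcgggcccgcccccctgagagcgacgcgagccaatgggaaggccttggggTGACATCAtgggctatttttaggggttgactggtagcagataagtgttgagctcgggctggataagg
JUNB, chr19:12791236-12791485, plus strand: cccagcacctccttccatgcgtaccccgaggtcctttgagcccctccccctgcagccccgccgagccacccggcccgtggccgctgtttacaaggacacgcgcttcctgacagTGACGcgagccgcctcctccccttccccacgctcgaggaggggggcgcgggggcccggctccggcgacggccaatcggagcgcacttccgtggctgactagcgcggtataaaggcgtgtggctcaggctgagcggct
JUND, chr19:18281623-18281872, minus strand: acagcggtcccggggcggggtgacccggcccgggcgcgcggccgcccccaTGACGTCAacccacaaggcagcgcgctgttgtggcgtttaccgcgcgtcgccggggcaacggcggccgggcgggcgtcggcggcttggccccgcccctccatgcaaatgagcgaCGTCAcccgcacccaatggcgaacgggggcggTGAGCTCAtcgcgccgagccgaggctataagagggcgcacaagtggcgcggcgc
MAFF, first of its start sites, chr22:38201744-38201993, plus strand: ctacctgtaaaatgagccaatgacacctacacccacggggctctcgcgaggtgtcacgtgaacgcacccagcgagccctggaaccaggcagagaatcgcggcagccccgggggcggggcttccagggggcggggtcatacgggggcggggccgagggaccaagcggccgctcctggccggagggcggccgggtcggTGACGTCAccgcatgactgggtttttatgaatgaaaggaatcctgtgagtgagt

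JUND and MAFF each held the full cyclic AMP response element TGACGTCA, at -200 to -193 in JUND and at -54 to -47 in MAFF, counted from the start site. TGACGTCA was present in 1.65% of 35116 windows of the same length, and it lies within both TGANNTCA and TGACG. JUN carried TGACATCA at -67 to -60, a form of TGANNTCA, a pattern held by 10.1% of windows. JUND carried another form of it, TGAGCTCA, at -54 to -47. FOS and JUNB held the shorter TGACG, at -64 to -60 and at -137 to -133, as did 21.2% of windows in one orientation or the other. Windows for FOSB and FOSL2, not printed here, also held TGACG. MAFF has another start site in the table, and its window, chr22:38202770-38203019, held no match to any of these patterns and is not printed. None of the 7 members with a window matched TGANTCA, which 6.57% of windows held. FOSL1, BATF3 and ATF2 had no window in the table used. These matches describe letters only and no binding was measured.

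The family split by phase. JUND, JUNB, FOS, FOSB, BATF3 and ATF2 reached their highest levels in P15, FOSL1 had its lowest there, and MAFF was highest in P3. All levels are given as log2(CPM + 1) unless CPM is named, and all changes are differences on that scale. The scale understates changes in genes of low level such as FOS and BATF3. On it JUND had the largest change of the 10 from P0 to P3, where it fell. JUND also had the largest from P7 to P15, where it rose above the parental level. In mean CPM the ratio of P15 to P7 was larger for BATF3 (8.984 against 1.654) than for JUND (135.6 against 30.43). A difference passed the test where its adjusted p in limma was below 0.05, and was called 2-fold where its log2 change was also at least 1 in size.

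**Figure D1:**
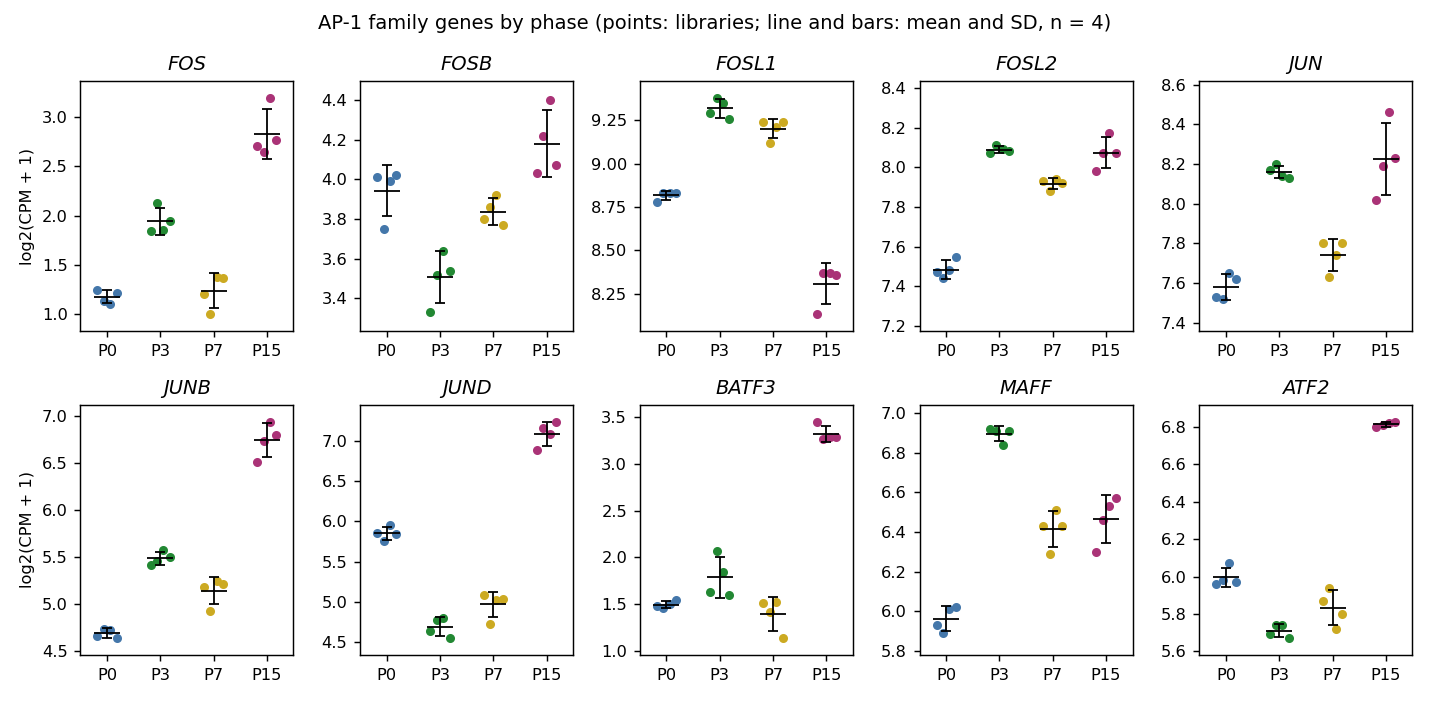
Level of each AP-1 member, as log2(CPM + 1), in the 4 libraries of each phase. Points are libraries, horizontal lines are phase means and bars are the SD. JUND drops from a mean of 5.85 in P0 to 4.69 in P3 and reaches 7.09 in P15, while FOSL1 goes from 8.82 to 9.32 and then to 8.31.

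Among the FOS genes, FOSL1, which encodes FRA-1, was the most abundant per kilobase of exon. FOSL1 stood at 8.78, 8.83, 8.83 and 8.83 in the P0 libraries, at 9.29, 9.38, 9.35 and 9.26 in P3, at 9.24, 9.12, 9.21 and 9.24 in P7, and at 8.13, 8.37, 8.37 and 8.36 in P15. Every P3 library lay above every P0 and P7 library, and the P15 libraries lay below all others. Its mean fell from 450.2 CPM in P0 to 316.6 CPM in P15, a log2 change of -0.51 (adjusted p = 8.6e-11, limma). FOSL1 had risen by 0.50 in P3 against P0 (SE 0.04, adjusted p = 3.9e-10), so that its fall from P3 to P15 was -1.01 (adjusted p = 9.2e-17). That last change sits at the 2-fold limit and was -0.95 without P15 replicate 1, the lowest library, and -0.99 without P3 replicate 2, and -0.95 with quantile normalization. FOSL1 lies at chr11:65892049-65900573 on the minus strand (GRCh38) with 4 exons.

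FOS, the founding member and the fastest of the immediate early genes, was the least abundant per kilobase of exon. Its values were 1.25, 1.14, 1.11 and 1.22 in P0, 1.84, 2.13, 1.85 and 1.94 in P3, 1.21, 1.00, 1.38 and 1.37 in P7, and 2.70, 2.64, 3.19 and 2.76 in P15. P0 and P7 overlapped, P3 stood above both, and P15 stood above P3. In counts estimated from each library's depth, this was 40 to 52 reads in P0 and 219 to 292 in P15. FOS rose by 0.76 in P3 (SE 0.11, adjusted p = 2.2e-06), returned to 0.06 above P0 in P7 (adjusted p = 0.66), and was 1.64 above P0 in P15 (adjusted p = 1.1e-12). The P15 change was 2.18 with a pseudocount of 0.1 and 0.83 with a pseudocount of 5, the latter under the 2-fold limit. FOS lies at chr14:75278826-75282230 on the plus strand with 4 exons.

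FOSL2, which encodes FRA-2, was raised in every later phase. It read 7.47, 7.44, 7.48 and 7.55 in P0, 8.07, 8.11, 8.09 and 8.08 in P3, 7.93, 7.88, 7.94 and 7.92 in P7, and 7.98, 8.07, 8.17 and 8.07 in P15. All 12 libraries of GRC1 lay above all P0 libraries. The rise was 0.60 in P3 (SE 0.03, adjusted p = 1.5e-13) and 0.59 in P15 (adjusted p = 4.5e-14), and P15 and P3 differed by -0.02 (adjusted p = 0.68), a difference whose sign changed with the scaling. FOSL2 lies at chr2:28392448-28417317 on the plus strand with 4 exons.

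FOSB, an immediate early FOS gene, moved the other way in P3. Its values were 4.01, 3.75, 3.99 and 4.02 in P0, 3.33, 3.52, 3.64 and 3.54 in P3, 3.80, 3.86, 3.92 and 3.77 in P7, and 4.03, 4.22, 4.40 and 4.07 in P15. P3 lay below the other phases, whereas P0 and P7 overlapped and P15 lay just above P0. The change was -0.43 in P3 (SE 0.08, adjusted p = 5.3e-05) and 0.24 in P15 (adjusted p = 0.0096), the latter 0.16 to 0.17 and no longer passing without P0 replicate 2, without P15 replicate 3 or with quantile normalization. FOSB, at chr19:45467995-45475179 on the plus strand with 4 exons, lies wholly within the span of ERCC1 on the opposite strand, with 0 exonic bases shared. ERCC1, a DNA excision repair gene, rose by 2.16 in P15 against P0, and since the strand setting of the counting was not given in the sources used here, its part in the FOSB value was not tested.

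JUN, the main activating JUN gene, rose in P3 and again in P15. Its libraries read 7.53, 7.52, 7.65 and 7.62 in P0, 8.17, 8.20, 8.14 and 8.13 in P3, 7.80, 7.63, 7.74 and 7.80 in P7, and 8.02, 8.19, 8.46 and 8.23 in P15. P3 and P15 overlapped and both lay above P0, while P7 overlapped P0 at its lowest library. JUN was 0.58 higher in P3 than in P0 (SE 0.06, adjusted p = 5.8e-09) and 0.65 higher in P15 (adjusted p = 2.9e-10). P15 and P3 differed by 0.06 (adjusted p = 0.3), and by 0.13 without P15 replicate 1 (adjusted p = 0.022). JUN lies at chr1:58776845-58784048 on the minus strand, in 1 exon.

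JUNB, an immediate early gene whose product can restrain JUN activity, gained most in P15. Its values were 4.66, 4.74, 4.73 and 4.64 in P0, 5.42, 5.46, 5.58 and 5.50 in P3, 5.18, 4.93, 5.25 and 5.21 in P7, and 6.51, 6.73, 6.94 and 6.80 in P15. All P15 libraries lay above all libraries of the other phases, and P0 was the lowest of the 4 phases. The mean rose from 24.87 CPM in P0 to 106.9 CPM in P15, a log2 change of 2.05 (SE 0.07, adjusted p = 1.1e-18). The step from P0 to P3 was 0.80 (adjusted p = 5.6e-10) and that from P3 to P7 was -0.35 (adjusted p = 0.00019). JUNB lies at chr19:12791486-12793315 on the plus strand, in 1 exon, and 259 of its 1830 exonic bases are also exonic in HOOK2 on the opposite strand. HOOK2 changed by 0.12 from P0 to P15 (adjusted p = 0.11).

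JUND is a JUN gene usually expressed constitutively and linked to restraint of growth and to oxidative stress defence. On the log2(CPM + 1) scale it showed the widest swing of the family. It read 5.85, 5.76, 5.95 and 5.84 in P0, 4.64, 4.78, 4.80 and 4.55 in P3, 5.08, 4.73, 5.02 and 5.04 in P7, and 6.88, 7.16, 7.08 and 7.23 in P15. P3 and P7 overlapped at 1 P7 library and both lay below P0, and P15 lay above P0. JUND fell by 1.16 on the log2 scale in P3 (SE 0.07, adjusted p = 1.5e-12), a mean of 24.92 CPM against 56.74 CPM. It then rose by 2.12 from P7 to P15 (adjusted p = 1.4e-18), to a mean of 135.6 CPM, and stood 1.24 above P0 (adjusted p = 8.1e-14). JUND lies at chr19:18279694-18281622 on the minus strand, in 1 exon.

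**Figure D2:**
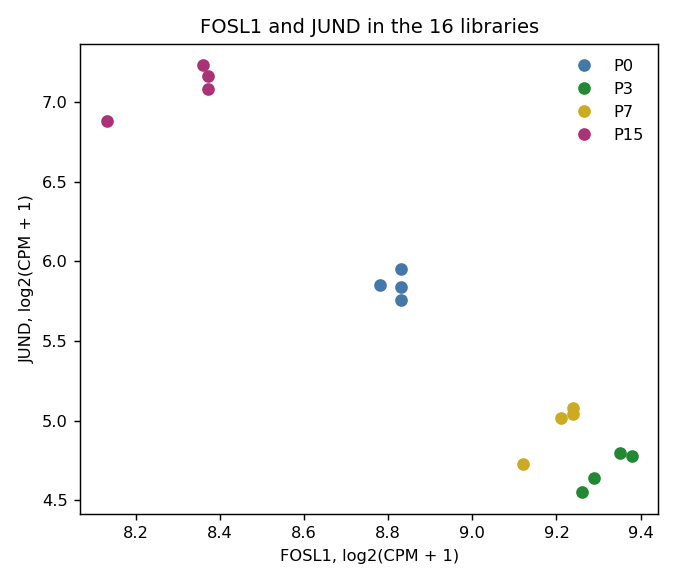
FOSL1 level against JUND level, both as log2(CPM + 1), 1 point per library and 1 colour per phase. The phases form 4 groups that run from P3, with the lowest mean JUND (4.69) and the highest mean FOSL1 (9.32), to P15, with 7.09 and 8.31.

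FOSL1 and JUND ranked the phases in opposite order. Mean FOSL1 ran downward from P3 (9.32) through P7 (9.20) and P0 (8.82) to P15 (8.31), and mean JUND ran upward from P3 (4.69) through P7 (4.97) and P0 (5.85) to P15 (7.09). Neighbouring phases in that order differed in limma for both genes, with the smallest steps between P3 and P7, at -0.12 for FOSL1 (adjusted p = 0.024) and 0.27 for JUND (adjusted p = 0.0027). That FOSL1 step no longer passed without P3 replicate 2, P3 replicate 3 or P7 replicate 2 (-0.09 to -0.11), with quantile normalization, without the filter or without the variance trend. This order was not particular to JUND among the members. Mean ATF2 and mean FOSB also ran upward from P3 through P7 and P0 to P15. ATF2 went from 5.71 in P3 to 6.82 in P15, and FOSB from 3.51 to 4.18. For FOSB the step between P7 and P0 did not pass (adjusted p = 0.27, limma). The libraries form separate groups by phase, so no pooled correlation is given.

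Among the partner genes, BATF3, a short zipper protein that lacks an activation domain and pairs with JUN proteins, stood out in P15. Its values were 1.48, 1.46, 1.50 and 1.55 in P0, 1.63, 2.07, 1.85 and 1.60 in P3, 1.51, 1.42, 1.53 and 1.14 in P7, and 3.45, 3.26, 3.28 and 3.28 in P15. P0 and P7 overlapped, and all P15 libraries lay far above the rest. The P15 change against P0 was 1.82 (SE 0.10, adjusted p = 2.6e-14), and the P3 change of 0.29 (adjusted p = 0.015) was 0.20 and no longer passed without P3 replicate 2, nor did it pass without the filter on low values (adjusted p = 0.067). These rest on 63 to 69 estimated reads per library in P0 and 313 to 395 in P15. BATF3 lies at chr1:212686417-212699840 on the minus strand with 3 exons.

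ATF2, a factor activated by JNK and p38 that pairs with JUN at cyclic AMP response elements, was the steadiest member up to P7. It read 5.96, 5.98, 6.07 and 5.97 in P0, 5.69, 5.74, 5.74 and 5.67 in P3, 5.87, 5.94, 5.72 and 5.80 in P7, and 6.80, 6.81, 6.82 and 6.83 in P15. P3 and P7 overlapped just below P0, and the 4 P15 libraries lay close together and above all others. ATF2 changed by -0.28 in P3 (SE 0.04, adjusted p = 1.5e-06) and by 0.82 in P15 (adjusted p = 2.2e-15), both against P0. The step from P7 to P15 was 0.98, just under the 2-fold limit, but 1.02 without P7 replicate 2 and 1.03 with quantile normalization, each of which made it a 2-fold call. ATF2 lies at chr2:175072250-175168382 on the minus strand, with 14 exons in its canonical transcript, and 246 of its exonic bases are shared with a long noncoding RNA on the opposite strand.

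MAFF, a small MAF protein that lacks an activation domain, had its peak in P3 instead. It read 5.93, 5.89, 6.01 and 6.02 in P0, 6.92, 6.91, 6.84 and 6.91 in P3, 6.43, 6.29, 6.51 and 6.43 in P7, and 6.30, 6.46, 6.53 and 6.57 in P15. The P7 and P15 libraries overlapped at a middle level between P0 and P3. MAFF rose by 0.93 in P3 (SE 0.05, adjusted p = 6.8e-14), fell by 0.48 in P7 (adjusted p = 2.3e-08) and differed by 0.05 between P15 and P7 (adjusted p = 0.36), or by 0.11 without P15 replicate 1 (adjusted p = 0.04). MAFF, at chr22:38200767-38216507 on the plus strand with 3 exons, shares 326 exonic bases with PLA2G6 on the opposite strand, and PLA2G6 changed by -0.97 in P3 and by 0.95 in P15 against P0.

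Set against all genes, the members had a larger median size of change in the first step, though most stayed under the 2-fold limit. From P0 to P3, 10 of 10 members passed the test, where 68.7% of all genes did. Of these, 7 were higher (31.4% of all genes) and 3 were lower (37.3%), the last being FOSB, JUND and ATF2. The median change was 0.54 over the members and -0.02 over all genes tested, and the median size of change was 0.59 and 0.23. JUND alone was called 2-fold, as lower (2.51% of all genes), and none as higher (1.95%, or 4.47% in either direction). With a pseudocount of 0.1 the rise of FOS was 1.10 in place of 0.76, which made it a 2-fold call.

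**Figure D3:**
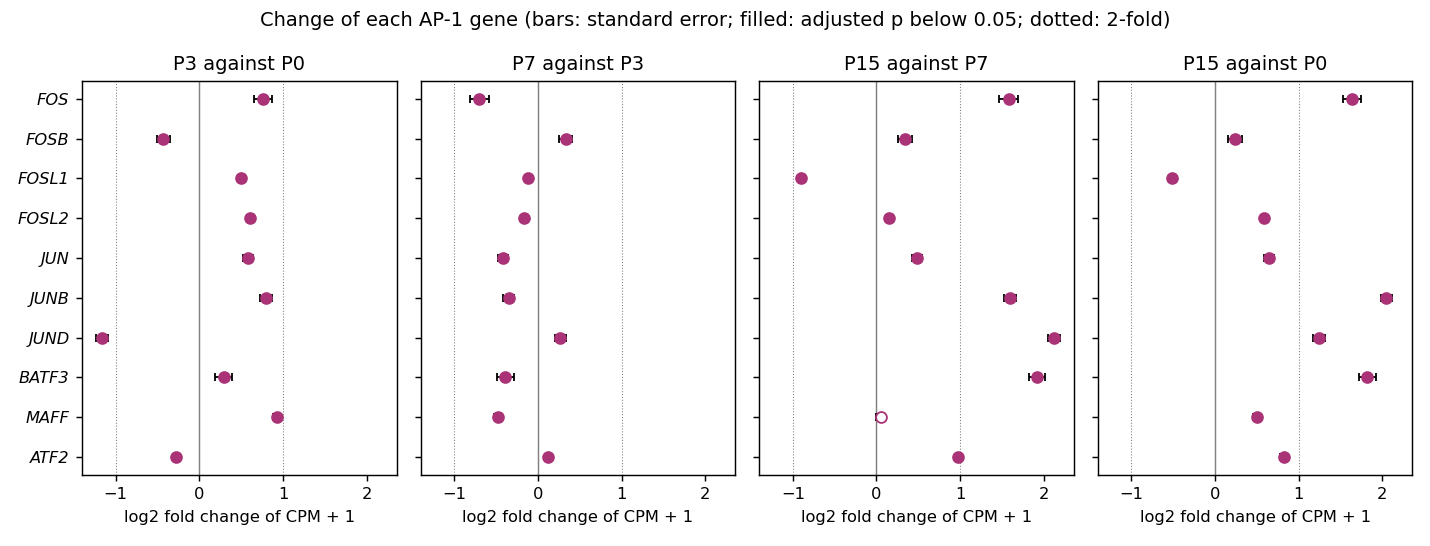
Log2 change of each member, with its standard error, on the log2(CPM + 1) scale. The comparisons shown are P3 against P0, P7 against P3, P15 against P7 and P15 against P0. Dotted lines mark the 2-fold limit. JUND lies beyond the lower line from P0 to P3 (-1.16), and FOS, JUNB, JUND and BATF3 lie beyond the upper line from P7 to P15.

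From P3 to P7 the members mostly fell. Again 10 of 10 members passed (58.2% of all genes), 7 of them lower (28.0%) and 3 higher (30.3%), and FOSB, JUND and ATF2 were the higher members, ATF2 by 0.12 (adjusted p = 0.013), or 0.09 and not passing without P7 replicate 2. The median change was -0.26 over the members against 0.01 over all genes. None was called 2-fold by limma (0.996% of all genes higher, 0.845% lower and 1.84% in either direction), although all 10 had passed on adjusted p alone. FOS changed by -0.70, or by -1.01 and as a 2-fold call with a pseudocount of 0.1. This comparison and the first share the P3 libraries.

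P7 lay close to P0 for several members. Here 7 of 10 passed (62.1% of all genes), 5 higher (27.9%) and 2 lower (34.2%), and none was called 2-fold (1.86% of all genes higher, 1.52% lower and 3.37% in either direction), with 7 past the adjusted p in limma alone. FOS, FOSB and BATF3 differed by 0.06, -0.10 and -0.10, each without passing. These small values rested on single libraries, with FOS at 0.14 without P7 replicate 2 and 0.01 without P7 replicate 3, FOSB at -0.17 without P0 replicate 2 and BATF3 at -0.01 without P7 replicate 4. FOSL1, FOSL2, JUNB and MAFF stayed 0.39 to 0.45 above P0, each passing, and JUND stayed 0.88 below it (adjusted p = 2.8e-10). JUN, 0.16 above P0 (adjusted p = 0.02), overlapped it in its libraries, and no longer passed without P0 replicate 1, P7 replicate 1 or P7 replicate 4 (0.14 to 0.15), without the filter or without the variance trend.

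By median size of change, the step to P15 was the widest for these genes, as it was for the transcriptome. MAFF, FOSL2, JUN and FOSB changed more from P0 to P3 than from P7 to P15, MAFF by 0.93 against 0.05. From P7 to P15, 9 of 10 members passed, close to the 86.4% of all genes, with 8 higher (46.3%) and 1, FOSL1, lower (40.1%). Called 2-fold were 4 members, all higher (13.4% of all genes higher, 25.5% in either direction): FOS at 1.58, JUNB at 1.60, JUND at 2.12 and BATF3 at 1.92. The median size of change was 0.94 over the members and 0.55 over all genes. Against P0, 10 of 10 passed (86.2%), 9 higher (45.3%) and FOSL1 lower (40.9%), and the same 4 genes were called 2-fold higher (12.2%). Against P3, 8 of 10 passed (87.2%), 6 higher (46.1%) and 2 lower (41.1%), with JUNB, JUND, BATF3 and ATF2 called 2-fold higher (15.0%) and FOSL1 lower (12.2%, or 27.1% in either direction). The 3 comparisons share the P15 libraries. With a pseudocount of 5, FOS was no longer called 2-fold in either comparison that had called it.

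Counting a phase as highest or lowest only where it passed (adjusted p below 0.05 in limma) against each of the others, P15 exceeded every other phase for 6 members (FOS, FOSB, JUNB, JUND, BATF3 and ATF2), as it did for 37.2% of all genes, and lay under every other phase for FOSL1 alone (32.3%). By the same rule P0 was the lowest phase for 4 members (FOSL2, JUN, JUNB and MAFF), compared with 8.91% of all genes. P3 was the highest for FOSL1 and MAFF (10.3%) and the lowest for FOSB, JUND and ATF2 (12.5%). No member met the rule in P7 (7.43% of genes highest and 7.3% lowest there), although the mean of BATF3 was lowest there, at 1.40 against 1.50 in P0.

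Levels compared between genes were taken per kilobase of exon, as CPM per kb. On that scale FOSL1 ranked first in every phase, at 238.6, 338.4, 311.9 and 167.8 for P0, P3, P7 and P15, and JUN ranked next, at 52.56, 78.66, 58.88 and 82.78. FOS ranked last throughout, from 0.3978 in P0 to 1.933 in P15. These ranks held whether the length was that of all exons of the gene or of the canonical transcript, whereas ranks in the middle moved with that choice. JUND went from 29.42 in P0 to 12.92 in P3 and 70.27 in P15, and JUNB from 13.59 in P0 to 58.40 in P15.

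The makeup of both subfamilies varied with phase. FOSL1 made up 89.5% ± 0.363 (SD, n = 4) of the summed FOS-gene level per kb in P0, and 89.3% ± 0.262, 89.5% ± 0.259 and 79.8% ± 0.897 in P3, P7 and P15. FOSL2 made up 17.9% ± 0.706 in P15 against 9.34% in P0, and FOS made up at most 1.15% in any library. Among the JUN genes, JUN held 55.0% ± 0.77 in P0, and 68.0% ± 1.26, 63.1% ± 1.38 and 39.1% ± 1.83 in P3, P7 and P15. JUND held 30.8% in P0, less in P3 (11.2%) and P7 (16.8%), and 33.3% ± 2.4 in P15, where its libraries overlapped those of P0, and JUNB held 14.2%, 20.8%, 20.1% and 27.6%. These shares are descriptions of RNA, with no test, and no protein was measured.

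**Figure D4:**
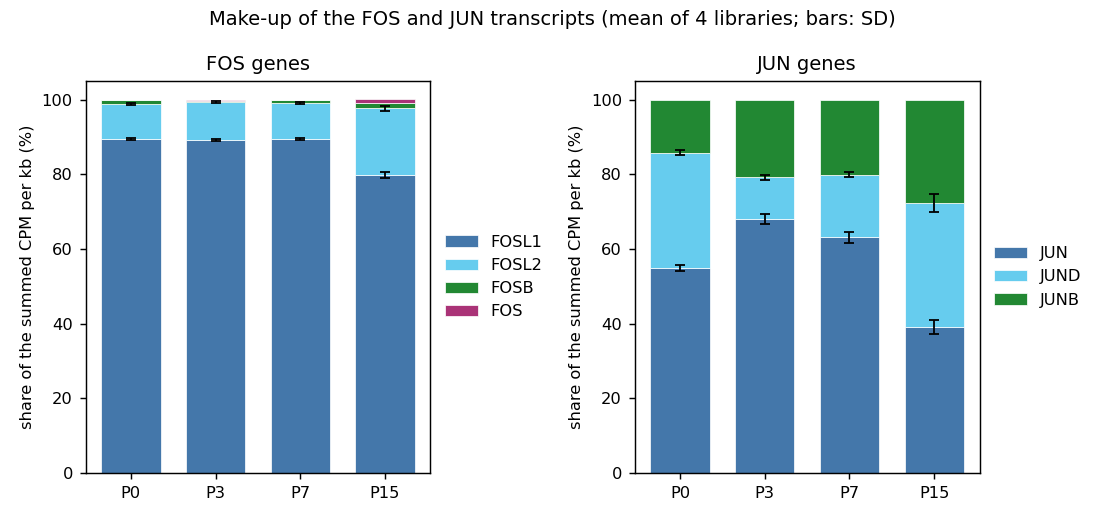
Share of the summed level per kb of exon held by each FOS gene and each JUN gene, in percent, by phase; bars are means over 4 libraries. FOSL1 goes from 89.5% in P0 to 79.8% in P15 and JUN from 55.0% to 39.1%.

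For each member the genes whose levels most resembled its own over the 16 libraries were listed by Pearson's r, as a description. The libraries of a phase come from the same line at the same phase, and the points form groups by phase. The closest to JUNB were IER2, an immediate early gene (r = 0.9915), MXD1, a MYC antagonist (r = 0.9903), and GADD45A, a DNA damage response gene (r = 0.9897). The closest to JUN were DENND1A (r = 0.9646), CYR61, an immediate early matricellular gene (r = 0.9526), and BCL2L1 (r = 0.9518). For the other members only the closest gene is named. RPL13, a ribosomal protein gene, was closest to JUND (r = 0.9953), FMNL1 to FOSL1 (r = 0.9929), ZNF561 to ATF2 (r = 0.9961) and KHDRBS3 to BATF3 (r = 0.9891). RBSN was closest to FOS (r = 0.9844), CELSR1 to FOSL2 (r = 0.987), PDE4D to MAFF (r = 0.9743) and KIAA0513 to FOSB (r = 0.9402).

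Other immediate early genes, which answer the same signals as FOS and JUNB, mostly rose in P3 and in P15. Of 17 listed, 15 were tested. From P0 to P3, 12 passed as higher (31.4% of all genes) and 2 as lower (37.3%), 5 were called 2-fold higher (1.95%), and the median change was 0.71, against -0.02 over all genes. EGR1, a zinc finger factor, changed by 3.24, DUSP1, a phosphatase that inactivates MAP kinases, by 2.61, and the YAP targets CTGF and CYR61 by 2.42 and 1.84. From P3 to P7, 11 passed as lower (28.0% of all genes) and 2 as higher (30.3%), with 4 called 2-fold lower (0.845%) and a median of -0.39 against 0.01. In P15 against P0, 14 passed as higher (45.3% of all genes) and 1 as lower (40.9%), 13 were called 2-fold higher (12.2%), and the median was 2.02, against 0.04 over all genes. EGR1 changed by 5.31, NR4A2, an orphan nuclear receptor, by 3.12, IER3 by 3.06 and ZFP36, which destabilises cytokine mRNAs, by 2.97.

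EGR1 varied more between libraries than the members did. It read 2.15, 1.84, 2.67 and 2.89 in P0, 5.28, 5.54, 6.03 and 5.66 in P3, 3.21, 3.25, 3.82 and 3.17 in P7, and 7.29, 7.49, 8.37 and 7.65 in P15. The 4 phases did not overlap. P15 replicate 3, the highest library for EGR1, was also the highest of its phase for 5 of 10 members, namely FOS, FOSB, FOSL2, JUN and JUNB.

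**Figure D5:**
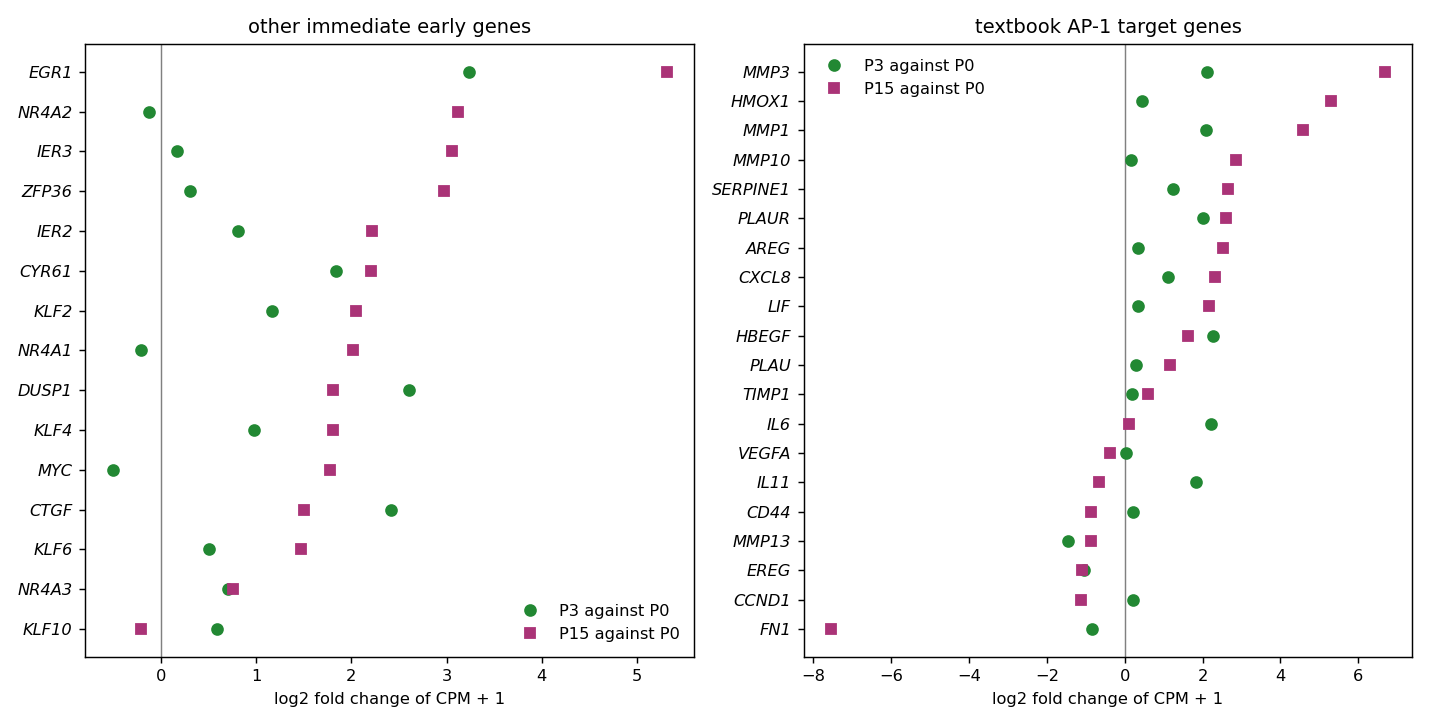
Log2 change of immediate early genes and of known AP-1 target genes against P0, on the log2(CPM + 1) scale. EGR1 reaches 5.31 in P15, and among target genes MMP3 reaches 6.68 while FN1 falls to -7.54.

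Known AP-1 target genes moved in both directions. Of 24 listed, 20 were tested, and from P0 to P3 15 passed as higher (31.4% of all genes) and 3 as lower (37.3%). Of these, 8 were called 2-fold higher (1.95%) and 2 lower (2.51%), with a median of 0.34 against -0.02 over all genes. The growth factor HBEGF changed by 2.27, the cytokine IL6 by 2.21 and the matrix proteases MMP3 and MMP1 by 2.10 and 2.08. MMP13, another matrix protease, and EREG, an EGF receptor ligand, changed by -1.47 and -1.06. In P15 against P0, 12 passed as higher (45.3% of all genes) and 7 as lower (40.9%). Of these, 11 were called 2-fold higher (12.2%) and 3 lower (11.5%), with a median of 1.40 against 0.04 over all genes. MMP3 changed by 6.68, HMOX1, a haem-degrading stress enzyme, by 5.31, MMP1 by 4.59 and MMP10 by 2.85, while FN1, encoding fibronectin, changed by -7.54, CCND1, encoding cyclin D1, by -1.12 and EREG by -1.09.

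Further zipper genes of the AP-1 and MAF network were read from the same fit. Of 12 listed, 7 were tested. In P3 against P0 5 passed as higher (31.4% of all genes) and 1 as lower (37.3%). In P15 against P0 5 passed as higher (45.3%) and 2 as lower (40.9%), and 7 of 7 passing is near the 86.2% of all genes. ATF3, a stress-induced partner of JUN, changed by 1.68 in P3 and 4.08 in P15, CREB5 by 3.38 in P15 and ATF7, a close relative of ATF2, by 1.32. JDP2, a JUN-binding repressor, changed by -1.42 and BATF2 by -1.15. Counts for regulators of AP-1 stand beside the 68.7% of all genes that passed in P3 and the 86.2% in P15, both against P0. Of 15 tested genes for kinases that act on AP-1, 5 passed as higher and 5 as lower in P3 against P0, 5 and 10 did in P15 against P0, and 1 was called 2-fold in P15 (23.6% of all genes), MAPK13, encoding p38 delta, at -4.81. Of 6 genes for SRF and its cofactors, which drive FOS transcription, 3 passed as higher and 2 as lower in P3, and 4 and 2 in P15, with none called 2-fold in limma. Of 6 genes for turnover of JUN protein or for its cofactors, MEN1 among them, 1 passed as higher and 4 as lower in P3, and 1 and 5 in P15, again with none called 2-fold.

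The cells were checked against urothelial markers, of which 7 of 14 listed were tested. UPK1B, UPK3A, KRT5, KRT20 and CDH1 were at or near 0 in all phases. UPK1A and UPK2 were low and not tested. From P0 to P15, mean UPK1A was 0.10, 0.34, 0.67 and 1.57, and mean UPK2 was 0.87, 0.62, 0.62 and 0.67. In P15 against P0, KRT19 changed by -6.41, KRT7 by -6.26, GATA3 by -3.93 and KRT8 by -3.06, while KRT18 changed by 0.43. Of markers of fibroblasts, endothelium and blood cells, 4 of 14 found were tested, and PTPRC, CD3E, LYZ and DCN were at or near 0. In P3 against P0 all 4 tested were called 2-fold lower (2.51% of all genes), CDH5 at -2.45, PDGFRB at -1.57, CD14 at -1.40 and COL1A1 at -1.12. CDH5 met the mean of 1 CPM only through P0, where its mean level was 2.74. It was 0.28, 0 and 0.18 in P3, P7 and P15. Its calls as lower in P3 and P15 therefore follow in part from the filter. In P15 against P0 COL1A1 was called higher, at 2.05 (12.2% of all genes). CD14 and CDH5 were called lower, at -2.88 and -2.56 (11.5%), and PDGFRB changed by -0.15 (adjusted p = 0.22, limma). The summed level of the 14 was 19.5 to 24.9 CPM in P0, 4.46 to 6.88 in P3, then 11.7 to 13 in P7 and 26.5 to 30.1 in P15, and its part in the AP-1 values was not tested. Total counts per library, recovered from the spacing of the lowest values, ran from 33.8 M to 50 M.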

How the data were processed

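RNA from 16 libraries (4 phases with 4 libraries each) was sequenced by the authors. Per the labels, reads were aligned with STAR 2.6.1a to GRCh38 (submitters' processing notes), and the study's methods name featureCounts for gene counts. The deposited values are log2 CPM as written by the authors, 1 value per gene and library, which the values show to be log2(CPM + 1) rounded to 2 decimals. Quantile normalization and centring on the median are named in the methods too, but the values carry neither. The annotation release, the strand setting and the treatment of multiply mapped reads were not given in the sources used here. All sample columns were used.

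Genes with a mean above 1 CPM (13249) were fitted in limma 3.58.1 (R 4.3.3) with a term for each phase over all 16 libraries, a variance trend and Benjamini-Hochberg adjustment over all genes tested. A gene was called 2-fold at adjusted p below 0.05 and a log2 change of at least 1. The script was tested on simulated data. All members are reported; from other lists up to 4 called rises and 4 called falls with the largest change were named, and for likeness up to 3 genes per member were listed. KRT18 and the genes overlapping a member were named after their values were seen. The members and lists were chosen with earlier results of these data known. Gene positions and exon lengths came from GENCODE on GRCh38 and upstream windows from RefSeq on GRCh38.p14. Alternatives were other pseudocounts (0.1 and 5), filters, scalings, variance models, a replicate block and leaving out each library.

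Depth was 33.8 to 50 M counts per library (M, 1e6), so that 1 count was worth at most 0.0296 CPM. Intervals from such counts would cover counting error only.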

Additional observations from a re-analysis of the deposited data

Results flagged for a closer look

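In 5 of 52 groups of 4 libraries 1 library stood apart from the others by Dixon's ratio, the gap to the nearest library over the range of the group. The groups were the 4 phases of each of the 10 members and of ERCC1, HOOK2 and PLA2G6. Chance flags about 1 in 20 groups, here 2.6 expected, and all 5 flags fell on members. FOSB in P0 replicate 2 read 3.75 against 3.99 to 4.02 (ratio 0.89). FOSL1 in P0 replicate 1 read 8.78 against 8.83 in the others (ratio 1.0, at values rounded to 2 decimals), and in P15 replicate 1 it read 8.13 against 8.36 to 8.37 (ratio 0.96). BATF3 in P15 replicate 1 was high, at 3.45 against 3.26 to 3.28 (ratio 0.89). MAFF in P3 replicate 3 read 6.84 against 6.91 to 6.92 (ratio 0.88). No explanation for these libraries was tested.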

How the results depend on the processing

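Of the values for single members in single comparisons, 585 of those under the alternatives that kept all libraries stayed on the same side of the threshold with the same direction (7 lost significance, 1 gained it and 1 turned), as did 946 of those with 1 library left out (10, 2 and 2). FOSL2 in P15 against P3 turned from -0.02 to 0.06 with quantile normalization and to 0.02 without P15 replicate 1, and JUN turned from 0.06 to -0.01 without P15 replicate 3, none of these passing. Without 1 library the values ranged from -0.05 to 0.02 for FOSL2 and from -0.01 to 0.13 for JUN, the highest of them passing. With a pseudocount of 0.1, FOS was gained and counts of members called 2-fold were 2 (P3 against P0) and 1 (P7 against P3). With no fold limit they were 10 for P3 against P0, 10 for P7 against P3, 9 for P15 against P7, 7 for P7 against P0, 10 for P15 against P0 and 8 for P15 against P3. Over all genes, 592, 244, 3377, 447, 3129 and 3592 were called in P3 against P0, P7 against P3, P15 against P7, P7 against P0, P15 against P0 and P15 against P3. In that order the counts were 9100, 7713, 11452, 8231, 11423 and 11557 with no fold limit and 290, 106, 2166, 203, 1976 and 2321 with a pseudocount of 5. With a pseudocount of 0.1 they were 939, 445 and 711 for P3 against P0, P7 against P3 and P7 against P0, and with a level above 1 CPM required in all libraries 380, 139 and 261 for the same comparisons. Leaving out 1 library gave 592 to 614, 239 to 249, 3352 to 3382, 447 to 460, 3103 to 3139 and 3582 to 3611 genes, and 1 member for P3 against P0, 0 for P7 against P3, 4 to 5 for P15 against P7, 0 for P7 against P0, 4 for P15 against P0 and 4 to 5 for P15 against P3. FOS was lost from the calls of P15 against P7 and against P0 with a pseudocount of 5, as was BATF3 from P15 against P3. Counts with another fold limit or filter differ by construction, and for the other shifts the cause was not tested.

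Over genes, same-numbered libraries deviated together little (r from -0.15 to 0.22), which cannot exclude that the numbers pair libraries. In P3 against P0 the title number as a block lowered the SE of JUNB from 0.07 to 0.057. It lowered that of MAFF from 0.051 to 0.043, but raised those of FOS (0.112 to 0.113) and ATF2 (0.041 to 0.043). With the replicate number as a block, 592 genes were called in P3 against P0 and 3129 in P15 against P0, the same counts as without it. Each number occurs once in each phase, so such a block cannot move a log2 change. The equal counts therefore do not show whether the numbers pair libraries. The limits are that 1 line was followed, that phase and the history of that line cannot be told apart, that the values are rounded to 2 decimals, and that FOS and BATF3 rest on few reads.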

Other observations

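A few libraries were extreme for many members at once. P15 replicate 1 was the lowest of its phase for 8 of 10 members, P7 replicate 2 for 7 and P0 replicate 2 for 6, and P3 replicate 2 was the highest of its phase for 5. Each of these 4 libraries carries the number 1 in its title. The titles also carry a second number, 8 distinct values from 8 to 15 over P0 and P7 and 8 distinct values from 1 to 16 over P3 and P15, with 5 in common. The labels do not say what it stands for, and each set consists of whole phases, so a difference between the sets cannot be told apart from a difference between phases.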
